A study of Rattus norvegicus with 16 samples.

Results

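The question here was whether the right ventricle of female rats answers pulmonary artery banding differently when estrogen receptor alpha is lost. It was asked with one contrast over all genes, the banding effect in ERalpha -/- rats minus the banding effect in wildtype rats, called the interaction below. All 16 of the 16 libraries entered it, 4 in each of 4 groups. A positive interaction means that the difference between banded and sham libraries lay higher in ERalpha -/- rats than in wildtype rats.

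Every library came from Sprague Dawley females aged 20 to 21 weeks, and 10 mg of right ventricle was extracted for each. The groups were wildtype rats after a sham operation (WT SHAM), wildtype rats with pulmonary artery banding (WT PAB), ERalpha -/- rats after a sham operation (KO SHAM) and ERalpha -/- rats with banding (KO PAB), banding having lasted 10 weeks. The labels give the mutant genotype as ERalpha -/- alone. They do not give the kind of mutation, the ovarian state or whether the 4 libraries of a group came from separate rats. The p-values below therefore measure the spread between these libraries. In bulk tissue, fewer cells of a type and less RNA per cell cannot be told apart.

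Banding narrows the outflow of the right ventricle, whose muscle then works against a raised pressure and enlarges. Cardiomyocytes under such load turn on a stress program that includes the natriuretic peptides, skeletal actin and the slow myosin heavy chain, while fibroblasts, vessels and immune cells of the wall can change too. ERalpha is a nuclear receptor that binds estrogen and then controls transcription from estrogen response elements in DNA, and it is studied in this tissue because sex hormones bear on how the right ventricle adapts to load.

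The libraries held 22168110 to 34718633 counts. Esr1, which encodes ERalpha, was at 3.74 to 5.53 CPM (counts per 1000000 of the scaled library) in sham and 2.69 to 5.05 CPM in banded wildtype rats. Sham ERalpha -/- rats had 0.425 to 0.589 CPM and banded ones 0.248 to 0.49 CPM, so no KO library overlapped a WT library. Adipocyte and mesothelial markers were each scored by the mean of their log2 levels, standardised over the 16 libraries, so scores are in standard deviations. The summed scores were highest in WT SHAM 2 (3.13), WT SHAM 3 (2.52) and KO SHAM 4 (2.25), where the other 13 libraries lay between −1.14 and −0.028. These 3 stood apart, all of them sham libraries, and values without them are given for the results described most closely below. KO PAB 3 stood apart in another way, with the highest summed levels of mast cell and neutrophil markers (85.3 CPM, the other 15 between 18.5 and 32.0) and macrophage markers (569 CPM, the others between 225 and 499).

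Of 32754 gene entries, 13458 had enough counts to be tested. No gene passed the interaction test at an adjusted p under 0.05 (edgeR quasi-likelihood test with Benjamini-Hochberg adjustment, 0% of genes, lowest adjusted p 0.999). Without adjustment 237 genes (1.76%) lay at p under 0.05, 142 positive (1.06%) and 95 negative (0.706%), where independent genes with no interaction would give 672.9. DESeq2 called 0 genes and limma-voom called 0 genes, with 246 and 242 at an unadjusted p under 0.05. A difference of differences is the least precise contrast of the design. Its median standard error was 0.239 on the log2 scale, against 0.169 within either genotype and 0.119 for the mean of both genotypes' banding effects. For 9173 genes (68.2%) the 95% interval of the interaction stayed inside ±1 log2 unit, and for 5485 (40.8%) inside ±1.5-fold. For the remaining genes it reached past 1 log2 unit in at least one direction.

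The banding effect of each genotype came from separate libraries, while the spread of each gene was estimated over all 16. In KO 85 genes passed the test (0.632% of genes), 69 upward and 16 downward, and in WT 1 gene did (0.00743%). No KO call was left without KO SHAM 1, KO SHAM 2, KO PAB 2 or KO PAB 4, or with the replicate number as a block, and 1 was left without KO SHAM 3, so the KO calls of single genes below rest on all of these libraries. The WT call was lost without WT SHAM 1, WT SHAM 2 or WT SHAM 4 and with limma-voom. The gene called in WT was Dusp15, which encodes a dual-specificity phosphatase. It was at 1.57, 1.32, 2.11 and 1.32 CPM in WT SHAM and at 14.6, 5.91, 7.12 and 4.74 CPM in WT PAB, and at 1.40, 1.57, 2.12 and 1.54 CPM in KO SHAM and 6.10, 7.31, 7.66 and 6.67 CPM in KO PAB. Banded libraries were above sham libraries in both genotypes without overlap, as in 2.60% of all genes in WT and 5.86% in KO, and the interaction of Dusp15 was −0.29 (SE 0.41, adjusted p 0.999).

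The unequal counts of 85 and 1 did not come with opposite effects. All 85 genes called in KO had the same direction in WT, where 47% of all genes had a positive effect, and 79 of them (92.9%) lay at an unadjusted p under 0.05 in that direction in WT, where 5.45% of all genes did so upward and 6.26% downward. The upward ones had a median of 1.00 in KO and 0.74 in WT on the log2 scale, and the downward ones −0.77 in KO and −0.38 in WT. Because these genes were chosen by their KO effect, the KO medians are raised by that choice. The mirror choice, the 85 genes with the smallest p in WT, gave 85 of the same direction in KO, where 46.3% of all genes had a positive effect, and 78 (91.8%) at an unadjusted p under 0.05 there, against 8.37% upward and 7.24% downward among all genes. Their upward medians were 0.92 in WT and 0.85 in KO, and 36 of them were also called in KO. Both p-values of a gene use a shared estimate of its spread. Choice by p in either genotype can thus favour a small p in the other, which the shares of all genes do not take into account. Without the 3 sham libraries that stood apart, all 85 KO genes kept a common direction in WT and 68 lay at p under 0.05 there. Over all tested genes the 2 effects, from separate libraries, had a Pearson r of 0.54 and a Spearman rho of 0.50, given as a description across genes that are not independent of each other.

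**Figure D1:**
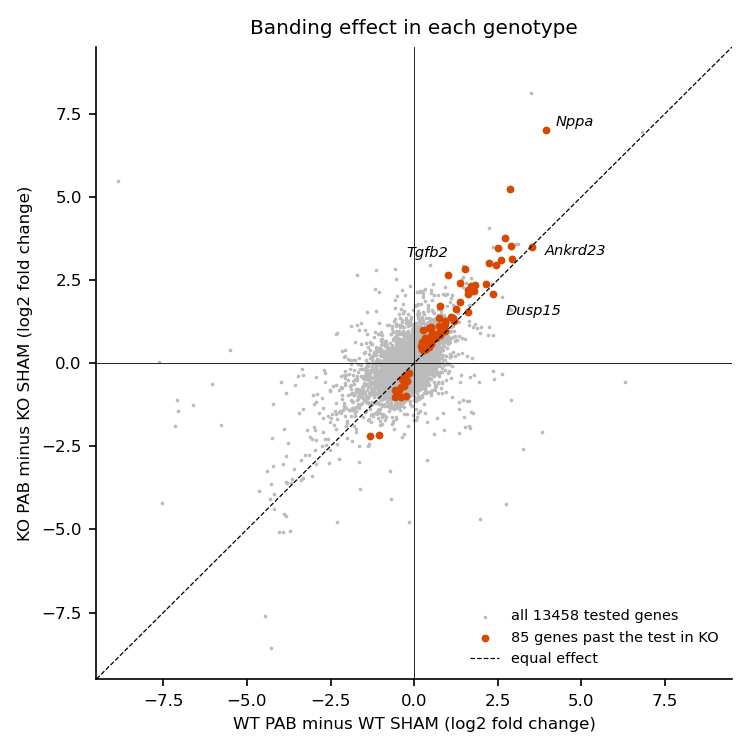
Banding effect in WT (horizontal axis, log2 fold change) against banding effect in KO (vertical axis, log2 fold change) for the 13458 tested genes (grey), with the 85 genes past the test in KO in orange and the dashed line of equal effect. All 85 orange points lie on the same side of 0 in both genotypes, and Nppa lies farthest above the line among the labelled genes.

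With all 16 libraries, most genes called for the shared response had a slightly larger effect in KO, a description that was not tested. The averaged contrast, which is orthogonal to the interaction when groups are of equal size, called 685 genes (5.09%), 436 upward (3.24%) and 249 downward (1.85%). In the direction of their banding effect, 490 of the 685 (71.5%) had the larger response in KO, against 51.7% of all tested genes, with a median excess of 0.10 log2 units. Of the 685 genes, 18 (2.63%) had an interaction at p under 0.05 beside 1.76% of all genes, and 507 (74.0%) had an interval inside ±1. The median excess hung on single libraries. It was −0.0047 without WT SHAM 4, where 472 of 964 called genes had the larger response in KO. It was 0.25 without WT PAB 1 and 0.16 without the 3 sham libraries that stood apart.

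WT PAB 1 had a stronger response than its 3 companions. Over the 436 genes called upward on average, the median level above the WT SHAM mean was 0.65 log2 units in WT PAB 1 and 0.32, 0.28 and 0.25 in WT PAB 2, 3 and 4, using log2(CPM + 1). The KO PAB libraries had 0.44, 0.55, 0.42 and 0.50 above the KO SHAM mean. The genes were chosen on these same libraries, so the values only describe the spread, in which WT PAB 1 was above all KO PAB libraries and the other 3 WT PAB libraries were below them.

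The number of genes below the unadjusted threshold moved with single libraries. It ran from 166 (without KO SHAM 2) to 865 (6.39% of genes, without KO SHAM 4), and was over 1.5 times larger also when WT SHAM 4 (474), WT PAB 1 (473), KO PAB 1 (379) or WT SHAM 1 (372) was left out. Of the 865 genes, 592 were positive (4.37% of genes) and 273 negative (2.02%). They held 202 of the original 237 (85.2% of the 237, 23.4% of the 865). Leaving out the 3 sham libraries together gave 296 genes (2.18%), of which 100 were among the 237 (42.2% of the 237, 33.8% of the 296). No gene passed the adjusted test in any of these fits, the lowest adjusted p being 0.535 without WT PAB 1. KO SHAM 4 was the KO SHAM library with the highest adipocyte and mesothelial scores, and leaving it out alone keeps both WT SHAM libraries of that kind in the contrast. Any part of this in the number of genes was not tested. WT SHAM 4, WT PAB 1, KO PAB 1 and WT SHAM 1, whose loss also raised the number, were not of that kind.

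**Figure D2:**
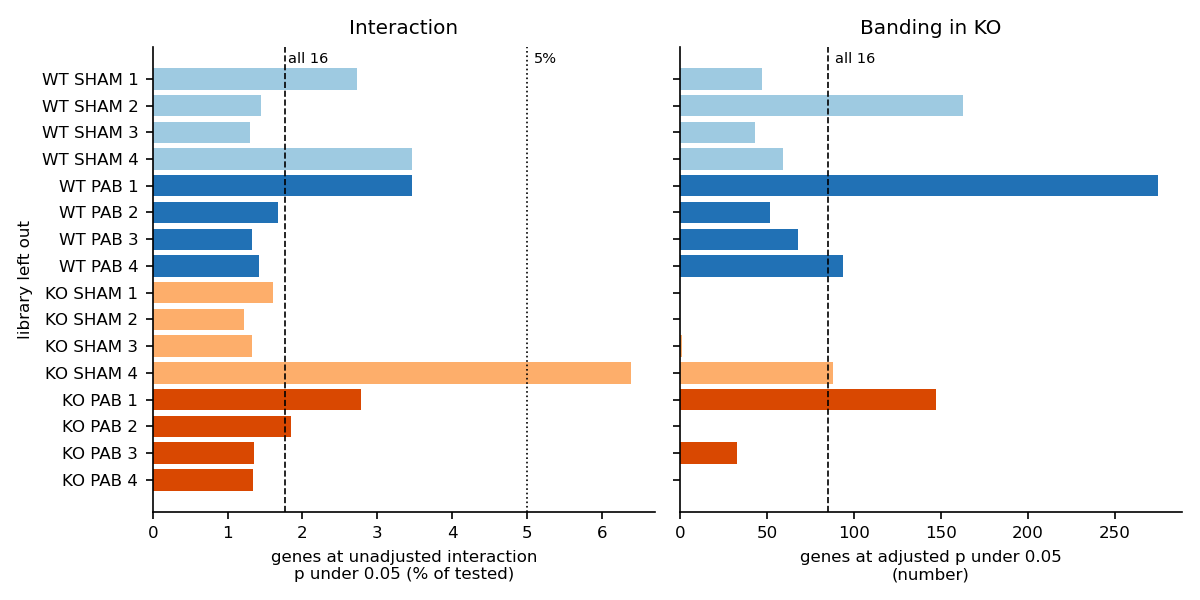
Effect of leaving out each library (vertical axis), coloured by group: left, the percentage of tested genes at an unadjusted interaction p under 0.05, with all 16 libraries as the dashed line at 1.76% and 5% dotted; right, the number of genes called for banding in KO at an adjusted p under 0.05, dashed at 85. The bar without KO SHAM 4 is the only one past 5% on the left, and the right bars reach from 0 to 275.

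Below the threshold, genes with a mean of at least 1 CPM were ranked by p, without entries under a placeholder symbol such as LOC. The 12 of smallest p in each direction are described next. All 24 had an adjusted p of 0.999, so none is a call. All 24 kept their sign in each of the 27 alternatives and had an unadjusted p under 0.05 in each of the 16 fits that left out 1 library. All of these fits reuse libraries by which the 24 were chosen, so the choice by p favours both outcomes. In 21 of the 24, banding had opposite signs in the 2 genotypes, as in 81.9% of the 237 genes and 31.6% of all genes. In all 24 the genotype difference had one sign in sham hearts and the other in banded hearts. The choice by interaction favours this form and the opposite banding signs alike, so neither count is support for these genes.

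Rps18l1, an entry annotated as similar to the small-subunit ribosomal protein gene Rps18, had the smallest p of the 24. It was at 8.71, 7.58, 8.27 and 8.84 CPM in WT SHAM and 7.15, 7.24, 7.31 and 5.40 CPM in WT PAB, and at 5.95, 4.30, 5.01 and 6.72 CPM in KO SHAM and 7.12, 7.58, 7.37 and 8.15 CPM in KO PAB. Banded libraries lay below sham libraries in WT, as for 2.33% of all genes, and above them in KO, with no overlap in either genotype. It was the only 1 of 13458 genes with that pattern in opposite directions (0.00743%), while 229 genes (1.70%) had no overlap in the same direction in both. The interaction was 0.76 (SE 0.19, unadjusted p 0.00126, adjusted p 0.999), and 0.94 without the 3 sham libraries. Near-identical copies can share reads, so the level of this entry is uncertain. Rps18 itself was at 252, 313, 260 and 286 CPM in WT SHAM, at 232, 236, 219 and 229 CPM in WT PAB, at 232, 221, 223 and 207 CPM in KO SHAM and at 218, 212, 237 and 243 CPM in KO PAB, with an interaction of 0.32 (SE 0.12, adjusted p 0.999). The second of the Rps29 entries, at a mean of about the 1 CPM limit, had 0.82 and is subject to the same doubt.

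Kcnj8 had the smallest p of the negative genes among the 24. Kcnj8 encodes the pore subunit of the ATP-sensitive potassium channel of pericytes and vascular smooth muscle. It was at 19.6, 23.9, 16.9 and 21.0 CPM in WT SHAM, at 22.5, 23.6, 25.4 and 19.7 CPM in WT PAB, at 20.6, 24.9, 23.8 and 23.8 CPM in KO SHAM and at 14.2, 19.8, 16.1 and 16.9 CPM in KO PAB. The 4 KO PAB libraries were below all KO SHAM libraries, as for 4.32% of all genes, while the WT groups overlapped. The interaction was −0.64 (SE 0.17, unadjusted p 0.00198, adjusted p 0.999), from −0.73 to −0.56 without each library in turn and −0.63 without the 3 sham libraries. Abcc9, which encodes the regulatory subunit of the same channel, had an interaction of 0.08 (unadjusted p 0.64). Kcna4, which encodes a voltage-gated potassium channel of the transient outward current, had −0.84 (SE 0.28). Its WT PAB libraries, at 3.39 to 5.48 CPM, lay above WT SHAM at 2.52 to 3.32 CPM, as for 2.60% of all genes. In KO the groups overlapped, PAB at 2.48 to 3.39 CPM and SHAM at 2.57 to 4.30 CPM. Rgs7, which encodes a regulator of G-protein signalling, had −1.22 (SE 0.42), with KO PAB at 0.603 to 0.957 CPM.

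The amino acid carriers Slc1a5, for neutral amino acids such as glutamine, and Slc1a3, for glutamate, had the highest positive interactions of the 24. Slc1a5 was at 2.21, 9.40, 5.73 and 1.85 CPM in WT SHAM, 1.81, 1.91, 2.59 and 1.58 CPM in WT PAB, 2.05, 1.3, 1.53 and 3.35 CPM in KO SHAM and 3.09, 2.86, 3.34 and 3.01 CPM in KO PAB. The 3 sham libraries with adipocyte and mesothelial markers held the 3 highest sham values of Slc1a5. Its interaction was 1.86 (SE 0.60, adjusted p 0.999) with all libraries and 0.95 (unadjusted p 0.00952) without those 3. For Slc1a3 the interaction was 1.59 (SE 0.54) with all and 0.90 (unadjusted p 0.0984) without those 3. The part of those libraries in both values was not tested further.

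Signalling genes included a ligand, a kinase adaptor and a lipid kinase subunit. Tgfb1, the ligand of the fibrogenic TGF-beta pathway, was at 7.56, 10.5, 8.95 and 7.98 CPM in WT SHAM, 8.65, 9.85, 8.14 and 6.83 CPM in WT PAB, 7.60, 6.45, 6.97 and 9.66 CPM in KO SHAM and 10.7, 11.0, 10.4 and 11.5 CPM in KO PAB. KO PAB libraries were above all KO SHAM libraries, as for 5.86% of all genes, and the WT groups overlapped. The interaction was 0.57 (SE 0.20, unadjusted p 0.0118, adjusted p 0.999), and 0.53 without the 3 sham libraries. Tab3, which encodes an adaptor of the TGF-beta activated kinase, had 0.81 (SE 0.27). Lrrc32, whose protein tethers latent TGF-beta on cell surfaces, had −0.44 (SE 0.17), so the 3 genes differed in sign. Of the 24 tested genes of the TGF-beta signalling list, 20 were positive, with a median of 0.20. That median was 0.0015 without the 3 sham libraries, 0.06 without WT SHAM 2 and 0.60 without KO SHAM 4.

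Pik3r1 encodes the regulatory subunit of PI3 kinase and was 1 of the 16 genes that fell in KO. It was at 65.3, 58.9, 71.1 and 74.6 CPM in WT SHAM, at 52.5, 57.4, 52.8 and 57.2 CPM in WT PAB, at 67.5, 87.2, 82.5 and 66.7 CPM in KO SHAM and at 44.7, 46.9, 50.9 and 45.6 CPM in KO PAB. Banded libraries lay below sham libraries in both genotypes without overlap, where 1.70% of all genes had no overlap in the same direction in both. The banding effect was −0.30 in WT (adjusted p 0.363) and −0.69 in KO (SE 0.10, adjusted p 0.0202), with an interaction of −0.39 (SE 0.14, adjusted p 0.999). Pik3r1 was the only 1 of 29 tested genes of insulin and PI3 kinase signalling at an unadjusted p under 0.05, and the median of that list was 0.02, with 16 positive and 13 negative.

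Mum1l1, whose protein is a relative of the chromatin-associated protein MUM1, also fell in KO (−0.997, SE 0.17, adjusted p 0.0309). It was at 5.48, 5.27, 5.12 and 5.22 CPM in WT SHAM, at 2.77, 4.81, 5.56 and 4.74 CPM in WT PAB, at 5.95, 6.33, 5.01 and 5.63 CPM in KO SHAM and at 2.94, 3.31, 2.71 and 2.52 CPM in KO PAB. WT PAB 1 was as low as the KO PAB libraries, and the other 3 WT PAB libraries were near or inside the sham range. The interaction was −0.76 (SE 0.24) with all libraries and −0.93 without WT PAB 1. Tspan7, a tetraspanin, had −0.47 (−0.57 without WT PAB 1), and the second entry of Cyp4b1, a cytochrome P450, had −0.96 (−1.17 without WT PAB 1). In both of these WT PAB 1 was the lowest WT PAB library, at 24.5 and 10.1 CPM.

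Of the remaining genes of small p, Iffo1, which encodes an intermediate filament family protein, was at 4.29, 4.60, 7.02 and 4.89 CPM in WT SHAM, 6.07, 4.01, 4.63 and 4.13 CPM in WT PAB, 4.43, 3.99, 5.14 and 5.41 CPM in KO SHAM and 7.00, 7.24, 7.33 and 9.08 CPM in KO PAB. KO PAB was above KO SHAM without overlap, as for 5.86% of all genes, and the WT groups overlapped (interaction 0.84, SE 0.25, adjusted p 0.999). The positive values of Usp12 (0.44), a deubiquitinase, Slc35d2 (0.86), a nucleotide sugar carrier, Tpcn2 (0.89), a lysosomal cation channel, Zfp35 (0.67), a zinc finger protein, and Arg2 (0.79), the mitochondrial arginase, completed the upper set. The negative values of Cdc42ep3 (−0.44), a Cdc42 effector, Txlng (−0.52), Fam117b (−0.43), Cyyr1 (−0.66) and Cep57l1 (−0.58), a relative of a centrosomal protein, completed the lower set. Without the 3 sham libraries 21 of the 24 stayed at an unadjusted p under 0.05. The 3 exceptions were Slc1a3 (0.0984), Zfp35 (0.068) and Cyyr1 (0.0963).

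**Figure D3:**
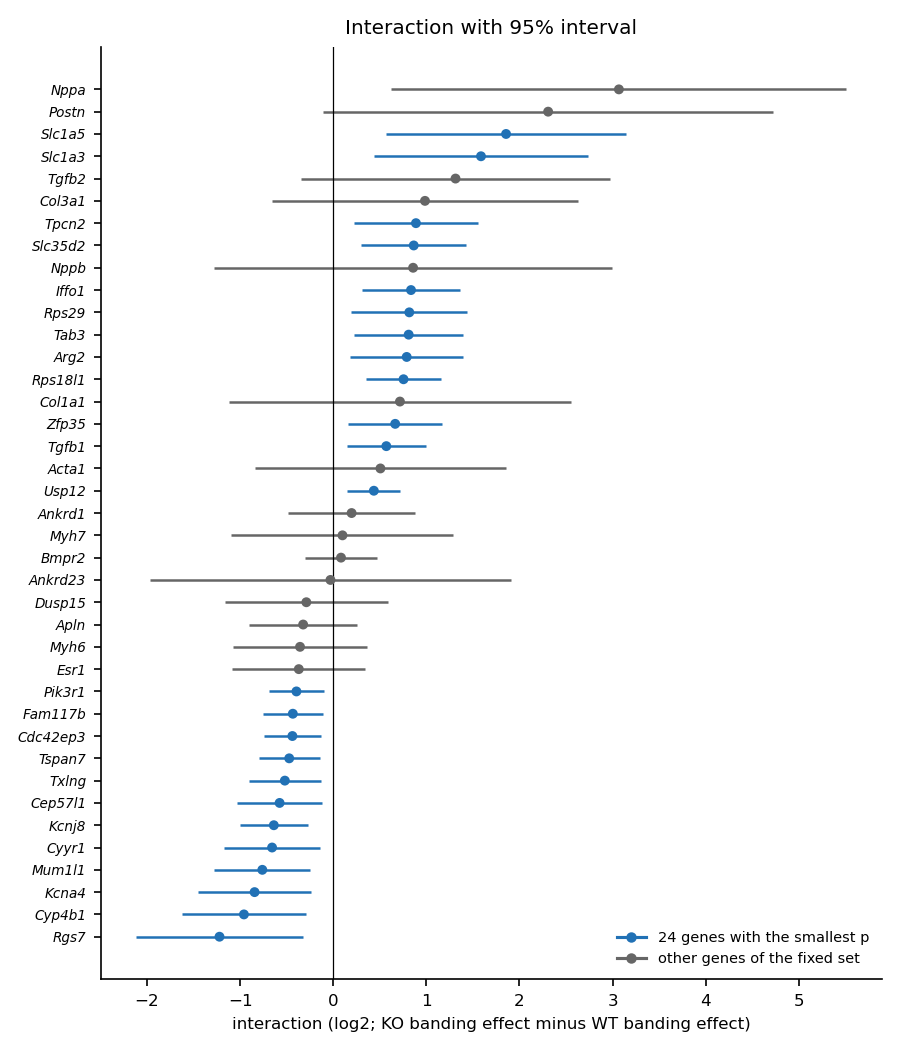
Interaction (horizontal axis, log2 units, KO banding effect minus WT banding effect) with its 95% interval for the 24 genes of smallest p as ranked above (blue) and the other genes of a fixed set (grey). No gene has an adjusted p below 0.999, and Nppa has the highest value, at 3.07.

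Among cardiomyocyte genes of the load response none passed the interaction test, and Nppa had the highest value. Nppa, which encodes atrial natriuretic peptide, was at 2.17, 10.1, 14.2 and 14.6 CPM in WT SHAM, at 462, 42.3, 38.0 and 85.0 CPM in WT PAB, at 1.46, 6.75, 6.97 and 7.41 CPM in KO SHAM and at 520, 326, 1017 and 1010 CPM in KO PAB. Banded libraries exceeded sham libraries without overlap in both genotypes, where 1.70% of all genes had no overlap in the same direction in both. Of the 4 WT PAB libraries, 3 lay below all KO PAB libraries, with WT PAB 1 inside the KO PAB range. The banding effect was 3.93 in WT (adjusted p 0.197) and 6.99 in KO (adjusted p 0.022), and the interaction was 3.07 (SE 1.14, 95% interval 0.62 to 5.51, unadjusted p 0.0175, adjusted p 0.999). It was 4.58 without WT PAB 1 (adjusted p 0.658) and 2.97 without the 3 sham libraries (unadjusted p 0.0741). Nppa is also a marker of atrial muscle. The atrial light chain Myl4 was at 2.64, 2.82, 17.4 and 3.97 CPM in KO PAB and at most 3.62 CPM in the other groups, and Myl7 was at most 14.1 CPM in any library, that being WT PAB 2. KO PAB 1, with Nppa at 520 CPM, had Myl7 at 0.753 CPM and Myl4 at 2.64 CPM, whereas KO PAB 3, with Nppa at 1017 CPM, held the highest Myl4. Nppa was the only 1 of 9 tested atrial markers at an unadjusted p under 0.05, and any part of atrial tissue in the difference was not tested.

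Nppb, Acta1, Myh7 and Ankrd1 had intervals that included 0. Nppb, which encodes brain natriuretic peptide, had 0.86 (95% interval −1.28 to 2.99), and it was −0.27 without WT SHAM 4. Acta1, skeletal actin, had 0.51 (−0.84 to 1.85), Myh7, the slow myosin heavy chain, had 0.10 (−1.09 to 1.29) and Ankrd1, a stretch-responsive ankyrin repeat protein, had 0.20 (−0.48 to 0.88). Of these the interval of Ankrd1 was the tightest, and with all libraries it lay inside ±1. Without WT PAB 1 the interactions of Acta1, Myh7 and Ankrd1 were 1.06, 0.70 and 0.51.

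Ankrd23, a titin-binding relative of Ankrd1, showed how 1 library set the result. It was at 2.49, 3.34, 4.69 and 4.60 CPM in WT SHAM, at 118, 14.8, 19.9 and 21.7 CPM in WT PAB, at 2.48, 7.33, 15.0 and 4.97 CPM in KO SHAM and at 39.3, 92.4, 94.2 and 105 CPM in KO PAB. WT PAB 1 was above all KO PAB libraries and the other 3 WT PAB libraries were below all of them. The interaction was −0.03 with all libraries (95% interval −1.97 to 1.91) and 1.18 without WT PAB 1. Of the genes called for banding in KO, Cdhr1 (1.04 with all and 2.31 without WT PAB 1), Rbm44 (0.95 and 2.14), Akip1 (0.78 and 1.75), Tgfb2 (1.31 and 2.01), the natriuretic peptide clearance receptor Npr3 (0.93 and 1.25) and Tceal9 (0.72 and 1.03) moved the same way when it was left out. Over the 26 tested hypertrophy stress genes the median interaction was 0.11, with Nppa the only member at an unadjusted p under 0.05. The list's median was 0.27 without WT PAB 1, −0.0042 without WT SHAM 4 and 0.22 without the 3 sham libraries.

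**Figure D4:**
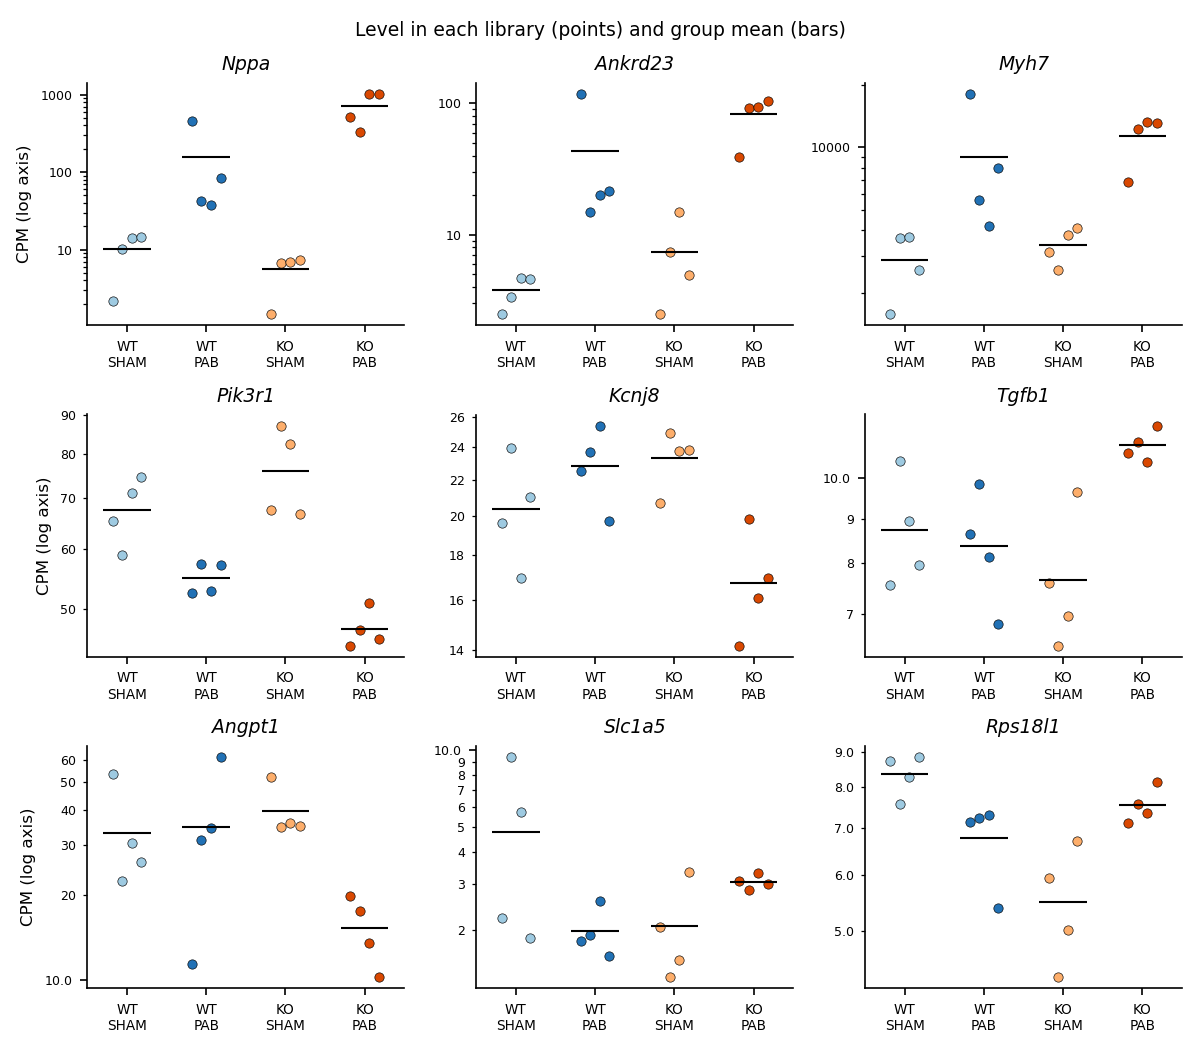
Level of 9 genes in CPM (vertical axes, logarithmic) in each library of the 4 groups (points, replicate 1 to 4 from left to right) with the group mean as a bar. In Nppa and Ankrd23 WT PAB 1 stands with the KO PAB libraries, in Kcnj8 and Tgfb1 only the KO groups separate, and in Slc1a5 the high WT SHAM values are WT SHAM 2 and WT SHAM 3.

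Functions were described with 44 gene lists, 29 of functions and 15 of cell types, over 897 tested genes. At an unadjusted p under 0.05 lay 24 of them (2.68%, 15 positive and 9 negative), beside 1.76% of all genes, and none passed the adjusted test. The median interaction was positive in 23 lists and negative in 21, beside 0.0068 over all genes, of which 51.4% were positive. In 24 lists the median had 1 sign in all of the 27 alternatives, 13 of them positive and 11 negative, and in 10 it changed sign when the 3 sham libraries were left out.

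Endothelial markers had a negative interaction whose size moved little. Their median was 0.11 in WT and −0.21 in KO, the median interaction was −0.27, and 10 of 12 tested markers were negative, with none at p under 0.05. Among them were Cdh5, the endothelial cadherin (−0.35), Kdr, the VEGF receptor (−0.36), Tek, the angiopoietin receptor (−0.26) and Aqp1, a water channel (−0.29), while Vwf had 0.09 and Tie1 0.07. The median stayed between −0.35 and −0.21 without each library and was −0.26 without the 3 sham libraries. The summed level of the list was 1471, 1406, 1405 and 1620 CPM in WT SHAM, 1425, 1514, 1581 and 1569 CPM in WT PAB, 1767, 1751, 1536 and 1532 CPM in KO SHAM and 1532, 1326, 1413 and 1412 CPM in KO PAB. In KO the banded libraries were below the lowest sham library (by under 1 CPM for KO PAB 1), and in WT the groups overlapped. Across genotypes, KO SHAM 1 and KO SHAM 2 were above all WT SHAM libraries, and KO PAB overlapped WT SHAM. These markers can move together, so 10 of 12 is not a count of independent results.

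Angpt1, the ligand that activates Tek, was the only listed angiogenesis gene at an unadjusted p under 0.05. It was at 53.6, 22.4, 30.4 and 26.2 CPM in WT SHAM, at 11.4, 31.3, 34.6 and 61.5 CPM in WT PAB, at 52.2, 34.8, 35.9 and 35.1 CPM in KO SHAM and at 19.8, 17.5, 13.5 and 10.2 CPM in KO PAB. KO PAB was below KO SHAM without overlap, as for 4.32% of all genes. WT PAB 1 was at the KO PAB level while the other WT PAB libraries were not. The interaction was −1.44 (SE 0.56, unadjusted p 0.0227, adjusted p 0.999), and it was −1.02 without WT PAB 4 (unadjusted p 0.0643) and −1.23 without the 3 sham libraries (unadjusted p 0.105). Over the 28 tested genes of angiogenesis and hypoxia the median was −0.11, with 19 negative.

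Genes of the unfolded protein response, which restores protein folding in the endoplasmic reticulum, had a median of −0.06 in WT and −0.31 in KO. The interaction was negative in 22 of 24, with a median of −0.14, and none lay at p under 0.05. The chaperones Hspa5 (−0.58), Hyou1 (−0.49) and Hsp90b1 (−0.27) were among them, and Ddit3, a stress-induced transcription factor, had 0.10. The median ran from −0.21 to −0.03 without each library and was −0.20 without the 3. Hspa5 was at 928 CPM in KO SHAM 1, 815 CPM in WT SHAM 1 and 929.9 CPM in WT PAB 4, and from 367 to 661 CPM in the other libraries.

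Lists of mitochondrial energy metabolism had small negative interactions in most members. Nuclear-encoded oxidative phosphorylation subunits were negative in 32 of 32 with a median of −0.21, fatty acid uptake and oxidation in 29 of 33 (−0.23), and the tricarboxylic acid cycle, ketone and branched-chain amino acid list in 30 of 33 (−0.21). None of these genes lay at p under 0.05. Glycolysis and glucose transport genes were negative in 23 of 31 with a median of −0.12, which was −0.0094 without the 3 sham libraries, and the lactate carrier Slc16a3 had 1.57 (unadjusted p 0.0296). Without the 3 sham libraries the medians of the first 3 lists were −0.09, −0.11 and −0.10, and cardiomyocyte markers, negative in 10 of 11 at a median of −0.19, had 0.02. Members of such a list move together, so the number of negative members is not a count of independent results. Those 3 libraries were high in markers of other cell types, whose part in these values was not tested.

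Lists of connective tissue and fat had positive medians that moved with the same libraries. Fibrillar matrix genes were positive in 39 of 42 with a median of 0.73, from 0.10 without WT SHAM 2 to 1.31 without KO SHAM 4, and 0.20 without the 3. Postn, a matricellular protein of activated fibroblasts, was at 5.85, 73.2, 23.7 and 5.51 CPM in WT SHAM, at 12.3, 15.1, 7.31 and 5.78 CPM in WT PAB, at 6.11, 4.80, 3.91 and 23.6 CPM in KO SHAM and at 5.61, 22.1, 20.3 and 23.4 CPM in KO PAB. Its high sham libraries were WT SHAM 2, WT SHAM 3 and KO SHAM 4, and its interaction was 2.31 (95% interval −0.10 to 4.72) with them and 1.01 (unadjusted p 0.167) without. Col3a1, a fibrillar collagen, had 0.99 with all libraries, 0.61 without the 3, and 0.50 to 1.67 without each library. Col1a1, another, had 0.72 with all, 0.74 without the 3, and 0.24 to 1.68 without each.

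Adipocyte markers, positive in 10 of 14, had the highest median of all lists, 2.20, which was 0.14 without KO PAB 3 and 0.18 without the 3 sham libraries. Those 3 were picked by scores that include these same markers, so the pick itself favours the lower values without them. Adipoq, the adipocyte hormone adiponectin, was at 45.6 and 28.1 CPM in WT SHAM 2 and WT SHAM 3, 11.1 CPM in KO SHAM 4 and 5.20 CPM in KO PAB 3, and at most 0.355 CPM in the other 12 libraries. Fasn, the fatty acid synthase, was the member at p under 0.05, with an interaction of 2.38 that was 0.16 without the 3. The cell cycle list, with Cdc20 (0.97, and 0.79 without the 3) and Aurkb (1.05 and 0.55), had a median of 0.51 that was 0.06 without the 3. The smooth muscle and pericyte list, to which Kcnj8 belongs, had 0.10 with all libraries and −0.21 without the 3.

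**Figure D5:**
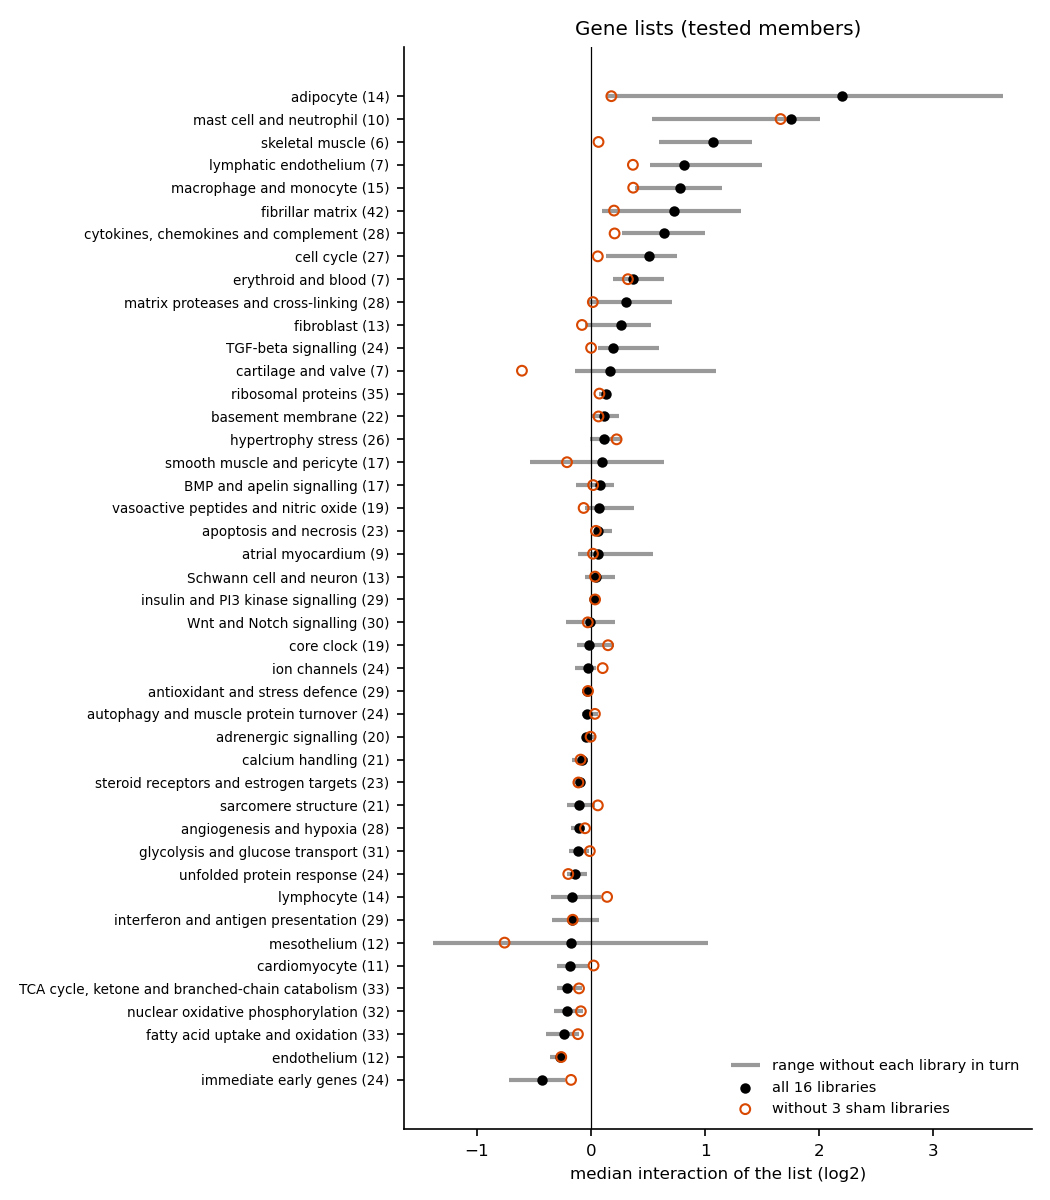
Median interaction (horizontal axis, log2 units) of 44 gene lists with the number of tested members in parentheses, with all 16 libraries (black), without each library in turn (grey range) and without WT SHAM 2, WT SHAM 3 and KO SHAM 4 (orange circle). Endothelial markers stay near −0.27 throughout, whereas adipocyte and fibrillar matrix lists shrink from 2.20 and 0.73 to 0.18 and 0.20. The libraries left out together were picked partly by the adipocyte list, which favours the fall of that list.

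Markers of myeloid cells had positive medians. Lymphocyte markers had a median of −0.16 with all libraries and 0.14 without the 3 sham libraries, and −0.35 to 0.09 without each library. All 15 tested macrophage and monocyte markers had a positive interaction, with a median of 0.78, from 0.38 without KO PAB 3 to 1.15 without KO SHAM 4, and 0.37 without the 3 sham libraries. Aif1, a marker of activated macrophages, was the one at p under 0.05 (1.02, unadjusted p 0.0351, and without the 3 sham libraries 0.63, unadjusted p 0.112). Mast cell and neutrophil markers, positive in 9 of 10, had a median of 1.76, which was 0.54 without KO PAB 3 and 1.66 without the 3 sham libraries. The neutrophil protein gene S100a9 was at 29.2 CPM in KO PAB 3 and at 5.80, 4.15 and 0.886 CPM in the other KO PAB libraries, against 0.68 to 7.56 CPM in all other groups. The mast cell protease genes Cpa3 and Cma1 had 2.18 (SE 0.75) and 1.80 (SE 0.76), and without the 3 sham libraries 1.66 (unadjusted p 0.0875) and 1.14 (unadjusted p 0.24). Cpa3 was at 1.06, 1.46, 1.65 and 0.534 CPM in WT SHAM, at 0.576, 0.582, 0.160 and 0.231 CPM in WT PAB, at 0.248, 0.691, 0.977 and 0.714 CPM in KO SHAM and at 0.979, 0.381, 1.76 and 0.780 CPM in KO PAB. WT PAB was the lowest group, with 3 of the 4 libraries of each other group above all WT PAB libraries, and it overlapped each of them. The mast cell tryptase genes Tpsab1 (0.07) and Tpsb2 (−0.27) and the receptor Kit (0.01) were the members with the lowest values.

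Steroid receptors, their coactivators and estrogen target genes had a median interaction of −0.10, with 16 of 23 negative and none at p under 0.05. Greb1, a classical estrogen target, had −0.69 (unadjusted p 0.34) and Gper1, the membrane estrogen receptor, had −0.74 (unadjusted p 0.11). The glucocorticoid receptor Nr3c1 had 0.03. Esr1 had −0.37 (SE 0.34), measured at under 1 CPM in all KO libraries.

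Of the 24 genes, the first 3 in each direction by p were searched for an estrogen response element. The search covered the 250 bases before the start in RefSeq promoters (build GRCr8), on both strands. Promoters of 2 of the 6 were in that table, Kcnj8 and Tspan7, and not those of Rps18l1, Iffo1, Usp12 and Mum1l1. Neither held the full element, GGTCA and TGACC with 3 bases of any kind between them, which was in 8 of 33469 promoters (0.0239%). Neither held GGTCA alone, which is 1 arm of that element and was in 11856 promoters (35.4%). These counts say only that the letters were not in those windows.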

How the data were processed

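Stranded mRNA libraries of right ventricle were sequenced by the authors, who deposited 1 table of expected counts per library. The values are whole numbers. The submitters' processing notes name STAR 2.5.3a, RSEM 1.3.0 and the build Rnor_6.0, with no role stated. The annotation, the strand setting and how expected counts became whole were not given in the sources used here. The tables hold 32754 gene entries, and 274 symbols occur more than once; each entry was kept apart. Totals of 22168110 to 34718633 per library set the precision.

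Genes with low counts were removed with filterByExpr (minimum count 10), libraries were scaled by TMM, and 4 group means were fitted to all 16 libraries with edgeR 4.0.16 (robust quasi-likelihood) in R 4.3.3. Each contrast was tested over 13458 genes with Benjamini-Hochberg adjustment at 0.05. Standard errors are the log2 fold change divided by the root of the F statistic, and 95% intervals use the moderated degrees of freedom. CPM are TMM-scaled. Alternatives used DESeq2 1.42.0, limma 3.58.1, other filters and scalings, a replicate block, a minimum fold of 1.5, each library left out, the 3 sham libraries left out, and their marker score as a covariate. The fit was tested on simulated data.

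Genes were named as follows: the 12 of smallest interaction p per direction with at least 1 CPM, up to 3 per list at p under 0.05, up to 8 called in 1 genotype with the largest interaction, up to 6 with opposite directions and no overlap, and a fixed set of stress, matrix and receptor genes. Entries with a placeholder symbol, such as LOC, RGD or AABR, were left out of the p ranking, the called genes and the opposite-direction genes. A few other list members were chosen after their values were seen, as examples of their list. The contrast, the lists and the named set were chosen with earlier results of these data known, so no count over a list is independent support.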

Additional observations from a re-analysis of the deposited data

Results flagged for a closer look

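Within a group of 4 libraries, a value can lie so far from its companions that its gap takes up most of the range. Of 248 such sets looked at, 18 were of that kind, where chance gives about 12.4 at 1 in 20. WT PAB 1 held 6 of the 18. It was at 461.5 CPM for Nppa (the other WT PAB libraries 38.0 to 85.0), 117.9 CPM for Ankrd23 (14.8 to 21.7), 8759 CPM for Ankrd1 (4151 to 4831), 16.68 CPM for Akip1 (2.49 to 4.68), 4.381 CPM for Cdhr1 (0.424 to 0.872) and 3.497 CPM for Rbm44 (0.388 to 0.733). In all 6 it was the highest library, and these genes share the banding response, so they are not 6 separate results.

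KO SHAM 4 was apart in 3 sets, at 24.15 CPM for Fasn (the others 7.25 to 9.14), 23.58 CPM for Postn (3.91 to 6.11) and 2.827 CPM for Cep57l1 (3.82 to 3.88). KO SHAM 1 was low for Nppa, at 1.457 CPM, and high for Angpt1, at 52.18 CPM. WT SHAM 4 was high for Cyyr1, at 56.86 CPM, and low for Cdhr1, at 0.08223 CPM. The other single sets were Myh7 in KO PAB 1 (6791 CPM, low), Iffo1 in KO PAB 4 (9.076 CPM, high), Rps18l1 in WT PAB 4 (5.398 CPM, low), Arg2 in WT PAB 2 (1.131 CPM, high) and Esr1 in KO SHAM 3 (0.4249 CPM, low).

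Rps18l1 was also the gene whose libraries moved in opposite directions in WT and KO without overlap. Its interaction of 0.7553 was tested and had an adjusted p of 0.999.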

How the results depend on the processing

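The interaction gave 0 calls in all 27 alternatives. Genes at an unadjusted p under 0.05 numbered 1155 with limma-voom quality weights, 381 with no filter on low counts, 49 against a minimum fold of 1.5, and 166 to 865 without each library. Banding calls in WT (1) became 108 with DESeq2 and 0 with limma-voom, with quality weights, with the minimum fold, without the 3 sham libraries and with the marker covariate, and 0 to 1 without each library. Calls in KO (85) became 509 with DESeq2, 1375 with quality weights, 2 with the minimum fold, 344 without the 3 sham libraries, 607 with the covariate, and 0 to 275 without each library (0 without KO SHAM 1, KO SHAM 2, KO PAB 2 or KO PAB 4). Averaged calls (685) became 1337 with DESeq2, 1283 with quality weights, 23 with the minimum fold, and 356 to 964 without each library. The median excess of the averaged genes in KO (0.10) was 0.17 with quality weights, 0.47 with the minimum fold, 0.16 without the 3, and −0.0047 to 0.25 without each library. The cause of these moves was not tested.

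Interactions that turned sign were those of Myh3 (4.34, and −1.12 without the 3 sham libraries), Dusp15 (0.0018 with quality weights, −0.48 to 0.16 without each library), Myh7 (−0.26 without the 3, −0.080 with the covariate, −0.14 to 0.70 without each library), Ankrd23 (0.77 with limma-voom, 0.80 with quality weights, 0.15 with the replicate block, 0.065 with the covariate, −0.33 to 1.18 without each library), Nppb (−0.27 without WT SHAM 4) and Bmpr2 (−0.020 without KO SHAM 1).

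Replicate numbers showed no consistent pairing of the samples. Over 24 same-number pairs the correlation of deviations ran from −0.62 to 0.56 with a median of 0.029, and 7 pairs were over 0.1. Of the 16 libraries, 3 matched their own number best. Whether some libraries of equal number share a batch was not tested. With the replicate block KO had 0 calls, the averaged contrast 496, WT 1 and the interaction 0, with 200 genes at an unadjusted p under 0.05.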

Other observations

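Immediate early genes, which respond within minutes to stimulation and to handling of tissue, had a median banding effect of 0.14 in WT and −0.42 in KO. The interaction was negative in 22 of 24 with a median of −0.43, from −0.71 to −0.22 without each library and −0.17 without WT SHAM 2, WT SHAM 3 and KO SHAM 4. Without those sham libraries the banding medians were −0.20 in WT and −0.46 in KO, so the opposite signs did not remain. WT SHAM 2 had the lowest summed level of the list, 380 CPM, where the other WT SHAM libraries had 2536 to 3383 CPM. Dusp1, a phosphatase of this set, was at 286, 118, 389 and 416 CPM in WT SHAM, 339, 406, 300 and 229 CPM in WT PAB, 327, 331, 315 and 367 CPM in KO SHAM and 167, 183, 201 and 194 CPM in KO PAB. KO PAB was below KO SHAM without overlap, as for 4.32% of all genes, and the WT groups overlapped. Its interaction was −0.92 (SE 0.39, unadjusted p 0.033, adjusted p 0.999). Fos had −1.62 (unadjusted p 0.098).

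Ribosomal protein genes had a median interaction of 0.13, positive in 31 of 35, with banding medians of −0.15 in WT and −0.06 in KO. The median was 0.07 to 0.15 without each library and 0.07 without the 3 sham libraries.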
